A study of Homo sapiens with 15 samples.

Results

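Receptor tyrosine kinases and the ABL and SRC families of non-receptor tyrosine kinases, 48 genes in all, were followed in the human fibrosarcoma line HT-1080. The genes were listed by name, as classes of kinases that type II inhibitors such as GNF-7 can bind. The rule for the list uses no measured value, but it was drawn up with earlier results of these data known. All 48 were found among the 60670 genes of the count table, and 40 of them had enough reads to test. The study concerned how the tyrosine kinase inhibitor GNF-7 acts on senescent cells, and RNA was sequenced from 15 libraries in 5 groups of 3.

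Cycling HT-1080 cells were given the solvent DMSO and were labelled 6 h. In the other 4 groups the cells had expressed a dominant negative mutant of TRF2, a protein that caps telomeres, for 6 days, which uncaps telomeres and brings on senescence. These senescent cells then received DMSO or 1 uM GNF-7, each for 6 h or for 24 h. No cycling group received GNF-7 and none received DMSO for 24 h, so the effect of the compound could be tested in senescent cells alone. All groups come from 1 tumour line grown at reduced oxygen, and the 3 libraries of a group are labelled biological replicates without saying whether they were separate cultures, so p-values measure the spread between these libraries. Transcript levels say nothing direct of the amount or activity of a kinase, and in bulk RNA fewer cells with a transcript and less of it per cell cannot be told apart.

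Receptor tyrosine kinases span the membrane: a ligand outside the cell pairs the receptors, their inner kinase domains phosphorylate one another, and adaptors bind the phosphorylated tails and pass the signal to RAS, PI3K and phospholipase C. ABL and SRC family kinases have no outer domain and act beneath the membrane and at the cytoskeleton, downstream of receptors and integrins. Type II inhibitors occupy the ATP site together with a pocket that opens when the activation loop turns outward. GNF-7 belongs to this class and was developed against BCR-ABL. In mesenchymal tumour cells AXL, MET, EPHA2, the PDGF receptors and the collagen receptors DDR1 and DDR2 are known for roles in migration, matrix contact and drug resistance.

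The 250 bases before a RefSeq transcript start are given for 5 members that anchor the results below: DDR2, FYN and MERTK rose with GNF-7 at both times, TIE1 was among the most abundant members in every group, and INSR was at or near 0 outside the senescent GNF-7 24 h libraries. The sequences are from RefSeq on GRCh38.p14, 5′ to 3′ on the strand of the gene, with each CG dinucleotide in capitals. DDR2 lies on the plus strand (chr1:162632214-162632463), as do MERTK (chr2:111898357-111898606) and TIE1 (chr1:43300732-43300981), and FYN (chr6:111873072-111873321) and INSR (chr19:7294415-7294664) lie on the minus strand. The RefSeq start of INSR lies outside the gene as GENCODE 29 draws it, and the bases after it were not found at the beginning of a transcript there. FYN has 4 RefSeq starts and DDR2 has 3, and those shown are the one richest in CG for FYN and the one found in a GENCODE transcript for DDR2.
DDR2: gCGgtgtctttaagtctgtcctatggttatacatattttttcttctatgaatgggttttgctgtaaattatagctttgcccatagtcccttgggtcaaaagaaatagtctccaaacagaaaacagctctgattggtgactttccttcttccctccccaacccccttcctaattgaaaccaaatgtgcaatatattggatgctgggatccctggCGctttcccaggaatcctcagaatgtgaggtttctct
FYN: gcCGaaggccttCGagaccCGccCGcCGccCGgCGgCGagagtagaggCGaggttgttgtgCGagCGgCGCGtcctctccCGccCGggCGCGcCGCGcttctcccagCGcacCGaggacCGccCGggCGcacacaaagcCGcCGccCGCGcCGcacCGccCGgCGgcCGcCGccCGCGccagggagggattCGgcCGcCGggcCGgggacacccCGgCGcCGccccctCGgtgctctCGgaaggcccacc
MERTK: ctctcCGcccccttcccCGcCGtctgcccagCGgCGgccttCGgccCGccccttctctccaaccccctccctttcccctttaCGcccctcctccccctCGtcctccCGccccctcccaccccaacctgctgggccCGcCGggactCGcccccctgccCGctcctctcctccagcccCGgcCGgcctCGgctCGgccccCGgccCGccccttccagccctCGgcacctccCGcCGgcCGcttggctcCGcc
TIE1: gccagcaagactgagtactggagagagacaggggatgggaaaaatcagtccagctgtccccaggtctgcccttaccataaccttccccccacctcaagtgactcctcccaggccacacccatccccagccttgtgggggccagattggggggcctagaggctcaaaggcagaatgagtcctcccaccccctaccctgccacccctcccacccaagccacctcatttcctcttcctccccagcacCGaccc
INSR: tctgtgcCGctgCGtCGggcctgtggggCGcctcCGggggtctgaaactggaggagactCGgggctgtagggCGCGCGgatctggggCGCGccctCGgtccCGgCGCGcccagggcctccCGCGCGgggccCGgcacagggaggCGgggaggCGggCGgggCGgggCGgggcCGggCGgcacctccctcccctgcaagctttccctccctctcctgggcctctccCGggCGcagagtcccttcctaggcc

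These 5 starts differ in CG content. The stretch before FYN holds 45 CG dinucleotides, that before INSR 28 and that before MERTK 25, against 2 before DDR2 and 1 before TIE1. The stretches before the other FYN starts hold 0, 6 and 20, and those before the other DDR2 starts 0 and 3. RefSeq windows of 300 bases (250 before a start and 50 after it) were matched to 43 of the 48 members, and some members have several starts. FGFR1 and LYN, on chromosome 8, were left out by rule, a step not applied to the windows of all genes. Taking the window with the most CG dinucleotides for each gene, the median was 32 over 36 tested members and 27 over 7 members too low to test, against 16 over all genes in the table. FYN and IGF1R were at 55 and TIE1 and ABL2 at 1. The letters TGATGNAA, shared by C/EBP-ATF response elements, were searched on both strands. They were in 2 of 76 windows of members (2.63%) and in 3.62% of all windows. One match, TTGCATCA, lay after the DDR2 start, in the bases of the window that are not printed above, and the other, TGATGAAA, lay 191 bases before a start of FGFR2. A match is letters only and not a bound site.

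Library totals ran from 25991007 to 32323393 counts, and a count of 0 in a library allows up to 3 counts. TERF2, the gene of the TRF2 mutant, averaged 58.2 CPM (counts scaled to a common library total, after correction for composition) in cycling cells and 287 in senescent DMSO 6 h cells, and 222, 220 and 132 in the senescent GNF-7 6 h, DMSO 24 h and GNF-7 24 h groups. Of 6 mesenchymal markers VIM was at 3474 to 4460 CPM in the group means, while FN1 went from 1125 CPM in cycling to 2053 in senescent DMSO 6 h and 1890.3 in GNF-7 6 h cells, and from 1885 in DMSO 24 h to 860.1 in GNF-7 24 h cells. COL1A1 averaged 7.18 to 13.0 CPM and S100A4 0.431 to 2.75, COL1A2 was under 1 CPM and THY1 had no count. The 5 epithelial markers summed to 743 to 759 CPM in cycling libraries and 396 to 408 in senescent DMSO 6 h, 348 to 365 in GNF-7 6 h, 452 to 473 in DMSO 24 h and 290.4 to 299.6 in GNF-7 24 h libraries, all but a trace of it KRT8 and KRT18, while CDH1, EPCAM and KRT5 were under 1 CPM throughout. The mitochondrial share of counts was 4.32% ± 0.637 (SD, n = 3) in cycling cells, 11.7% ± 0.638 and 16.9% ± 1.80 in senescent DMSO 6 h and 24 h cells, and 14.1% ± 1.08 and 23.3% ± 0.767 in GNF-7 at those times. Of 174 gene calls checked, 2 were lost when mitochondrial genes were left out of the scaling. The part of the FN1 and keratin shifts in the results was not tested.

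AXL, the receptor for the vitamin K dependent ligand GAS6, was the most abundant member in every group. On the RPKM scale, which divides CPM by the kilobases of exon, AXL was at 199 in cycling cells, 113 in senescent DMSO 6 h cells and 66.8 after GNF-7 for 24 h. It was followed by EPHA2 (129, 79.3 and 44.9 RPKM in the same groups), a receptor of membrane-bound ephrins, and by MET (76.2, 52.6 and 21.6), the receptor of hepatocyte growth factor. After GNF-7 for 24 h TIE1 (29.2 RPKM) and DDR2 (26.1) stood above MET. The first 3 members of each group held 62.0% of the summed level of the 48 members in cycling cells and 50.4%, 46.5%, 49.9% and 40.8% in senescent DMSO 6 h, GNF-7 6 h, DMSO 24 h and GNF-7 24 h cells. The sum itself was 651, 485, 463, 458 and 345 RPKM in that order, a description without a test.

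**Figure D1:**
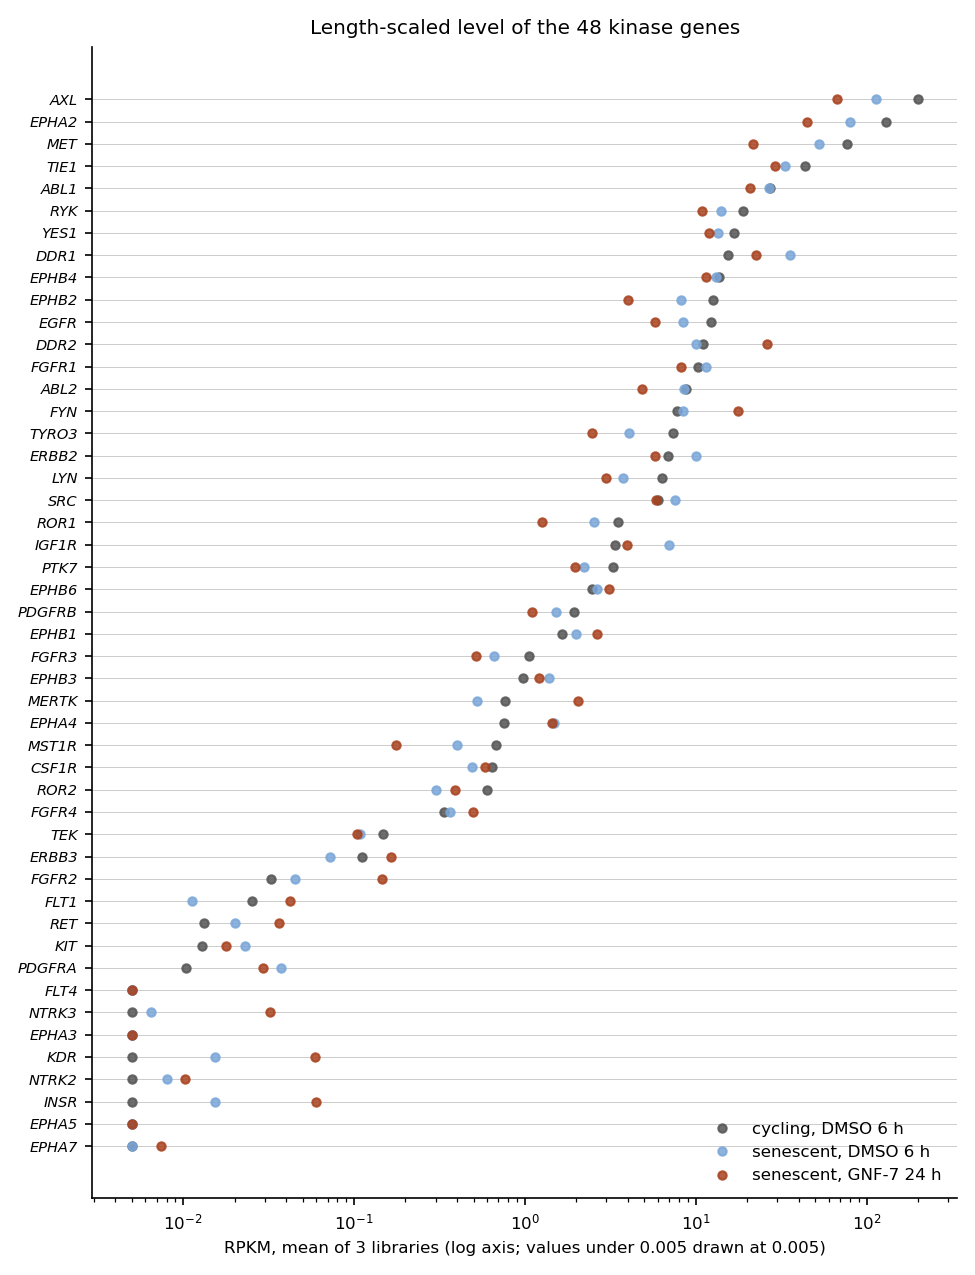
Length-scaled level (RPKM, log axis, mean of 3 libraries) of each of the 48 members in cycling DMSO 6 h, senescent DMSO 6 h and senescent GNF-7 24 h cells. AXL, EPHA2 and MET lie at the top and move left from cycling to senescent to treated cells, whereas DDR2 and FYN lie to the right of both vehicle groups after GNF-7, and the members too low to test are among the lowest rows.

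Below these, TIE1, ABL1, RYK, YES1, DDR1, EPHB4, EPHB2, EGFR, DDR2 and FGFR1 were at 10.2 to 43.7 RPKM in cycling cells. EPHB2 at 12.5 and EGFR at 12.3 RPKM stood beside each other there, with SDs of 0.207 and 0.279 over 3 libraries, and did not differ beyond their spread. At least 1 RPKM was reached by 26 members in cycling cells and by 28 after GNF-7 for 24 h. TIE1, which with TEK forms the angiopoietin receptors of endothelium, was at 43.7 RPKM in cycling cells while TEK was at 0.148. PECAM1, CDH5 and VWF, the 3 endothelial markers, summed to between 0.503 and 2.06 CPM in every library. The 8 members too low to test were KIT, NTRK2, EPHA3, EPHA5, EPHA7, FLT4, KDR and RET, with 0 to 18 counts in any library. KIT, a known target of type II inhibitors, had 2, 2 and 2 counts in cycling libraries, 5, 7 and 0 in senescent DMSO 6 h, 4, 7 and 12 in GNF-7 6 h, 1, 7 and 3 in DMSO 24 h and 4, 2 and 3 in GNF-7 24 h libraries.

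Between the vehicle groups at 6 h, senescent against cycling, 70.0% of the 18563 genes tested passed an adjusted p under 0.05, 35.6% higher and 34.4% lower in senescent cells. Of the 40 members tested, 11 were called higher and 18 lower, or 72.5%, which is near that background. DDR1, IGF1R and EPHA4 rose the most among members above 1 CPM, and ROR2, TYRO3 and AXL fell the most. The median member was at -0.33 on the log2 scale against 0.06 over all genes tested, and 4 members against 0 passed the threshold at 2-fold or more in the higher and lower direction, where 18.5% and 7.56% of all genes did. The 4 were DDR1, IGF1R, PDGFRA and INSR, but PDGFRA lost its call without cycling replicate 2 or 3. PDGFRA also passed the filter through senescent libraries alone, the side where it is high. INSR has no measurable fold, since it had 0 counts in cycling cells and passed the filter through the GNF-7 24 h libraries, and its place above the median does not alter the median.

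With GNF-7 for 6 h 39.3% of all genes were called, 17.9% higher and 21.4% lower. Of the 40 members tested 23 were (57.5%), 8 higher and 15 lower. DDR2, EPHA4 and FYN rose the most among members above 1 CPM, and FGFR3, ERBB2 and ABL2 fell the most. After 24 h 58.9% of all genes were called, 29.3% higher and 29.7% lower, and 31 of the 40 members (77.5%), 11 higher and 20 lower. MERTK, FGFR2, DDR2 and FYN then rose the most above 1 CPM, and MET, MST1R and EPHB2 fell the most. The median size of the difference, whatever its sign, was 0.29 at 6 h and 0.62 at 24 h over these members, against 0.23 and 0.39 over all genes. The share called over all genes depends on how many low genes are tested. When only genes at a mean of 5 CPM or more were kept, 6034 of 11226 were called at 6 h and 8136 at 24 h. Of the 27 members kept, 6 were called higher and 13 lower at 24 h. Of the 40 members tested, 5 were at least 2-fold higher at 24 h and 2 at least 2-fold lower, where 10.3% and 3.92% of all genes were. The 5 include INSR and FLT1, which passed the filter wholly or largely through the GNF-7 24 h libraries, where they are high.

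**Figure D2:**
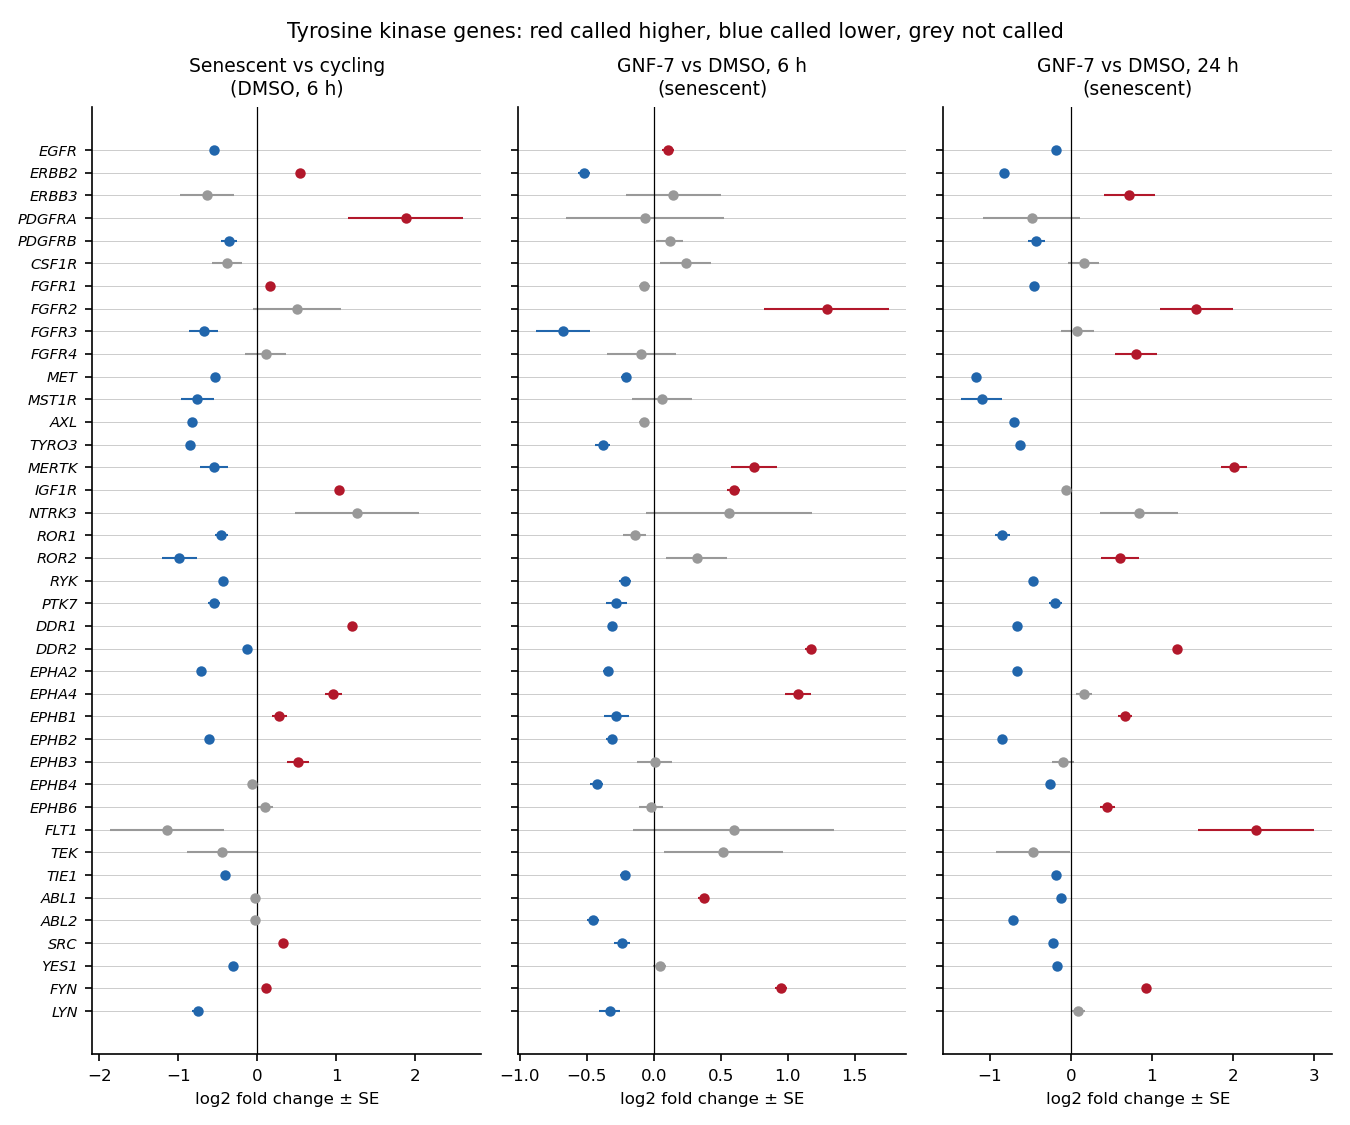
Log2 fold change ± SE (edgeR) of 39 tested members in senescent against cycling cells and in GNF-7 against DMSO at 6 h and at 24 h, with called members in red (higher) or blue (lower) and the rest in grey. INSR, with 0 counts in cycling cells, is not drawn. DDR1 lies far right in senescent cells and left of zero with GNF-7, and MERTK, DDR2 and FYN lie right of zero at both GNF-7 times.

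The collagen receptors DDR1 and DDR2 moved in opposite directions with GNF-7 at both times. DDR1 (chr6:30876421-30900156 in the GENCODE 29 annotation of GRCh38) was at 141, 139 and 141 CPM in cycling libraries, 342, 312 and 313 in senescent DMSO 6 h and 265, 256 and 261 in GNF-7 6 h libraries. DDR1 at 24 h was at 334, 317 and 329 CPM in DMSO and 201, 207 and 210.0 in GNF-7. Every senescent library was above every cycling one, and every GNF-7 library below every DMSO library of its time. DDR1 was 2.30-fold higher in senescence (log2 fold change 1.20, SE 0.038, adjusted p = 5.65e-37), and fell with GNF-7 at 6 h (log2 fold change -0.31, adjusted p = 2.48e-10) and further at 24 h (log2 fold change -0.66, adjusted p = 3.72e-24). Its exons hold MIR4640 on the same strand, over 90 bases.

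DDR2 (chr1:162631373-162787400) was at 116, 117 and 122 CPM in cycling, 109.8, 106 and 109 in senescent DMSO 6 h and 254, 232 and 245 in GNF-7 6 h libraries. DDR2 at 24 h was at 112, 114 and 111 CPM in DMSO and 282, 283 and 274 in GNF-7. The GNF-7 libraries stood far above all others, without overlap. The rise was 2.25-fold at 6 h (log2 fold change 1.17, SE 0.039, adjusted p = 4.83e-35) and 2.49-fold at 24 h (log2 fold change 1.31, SE 0.039, adjusted p = 3.83e-38). In senescence DDR2 was called slightly lower (log2 fold change -0.13, SE 0.040, adjusted p = 0.00328), a call that ended when libraries were scaled by total counts (0.00378) or genes filtered at a mean of 5 CPM (0.02). Per kilobase DDR1 stood at 35.8 and DDR2 at 10.5 RPKM in senescent DMSO 24 h cells, and at 22.6 and 26.1 RPKM after GNF-7, so the order of the pair was the reverse.

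The TAM receptors AXL, TYRO3 and MERTK, a family whose ligands include GAS6 and protein S, all fell in senescence. AXL (chr19:41219203-41261766) was at 1006, 1041 and 1024 CPM in cycling, 615, 554 and 572 in senescent DMSO 6 h and 576, 518 and 563 in GNF-7 6 h libraries. AXL at 24 h was at 561, 546 and 571 CPM in DMSO and 347, 337 and 349.8 in GNF-7. The cycling libraries were the highest and the GNF-7 24 h libraries the lowest, whereas the 2 groups at 6 h in senescent cells overlapped. AXL was 1.76-fold lower in senescence (log2 fold change -0.82, SE 0.037, adjusted p = 1.12e-28) and 1.62-fold lower with GNF-7 at 24 h (log2 fold change -0.70, SE 0.037, adjusted p = 8.89e-25). At 6 h it was not called (log2 fold change -0.07, adjusted p = 0.122), but became so without senescent DMSO 6 h replicate 2 or GNF-7 6 h replicate 1, at -0.11 and -0.10.

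TYRO3 followed AXL in vehicle: 75.7, 80.6 and 84.5 CPM in cycling libraries, 45.3, 43.0 and 45.4 in senescent DMSO 6 h, 32.8, 33.1 and 36.7 in GNF-7 6 h, 43.7, 40.3 and 40.2 in DMSO 24 h and 27.3, 25.5 and 28.0 in GNF-7 24 h libraries. No GNF-7 library overlapped a DMSO library of its time, and TYRO3 fell in senescence (log2 fold change -0.85, SE 0.055, adjusted p = 1.43e-21), with GNF-7 at 6 h (log2 fold change -0.38, adjusted p = 1.48e-07) and at 24 h (log2 fold change -0.62, adjusted p = 4.78e-14). MERTK went the other way with the compound. It was at 3.10, 3.79 and 3.95 CPM in cycling, 2.32, 2.62 and 2.497 in senescent DMSO 6 h and 4.41, 3.84 and 4.26 in GNF-7 6 h libraries. MERTK at 24 h was at 3.13, 1.62 and 2.36 CPM in DMSO and 10.2, 9.84 and 8.96 in GNF-7. All GNF-7 libraries were above all senescent DMSO libraries, and those at 24 h were the highest. After the drop in senescence (log2 fold change -0.55, SE 0.18, adjusted p = 0.00503) MERTK was 1.68-fold higher at 6 h (log2 fold change 0.75, SE 0.17, adjusted p = 0.000292) and 4.05-fold higher at 24 h (log2 fold change 2.02, SE 0.16, adjusted p = 5.82e-17). Even then it was at 2.06 RPKM against 66.8 for AXL.

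**Figure D3:**
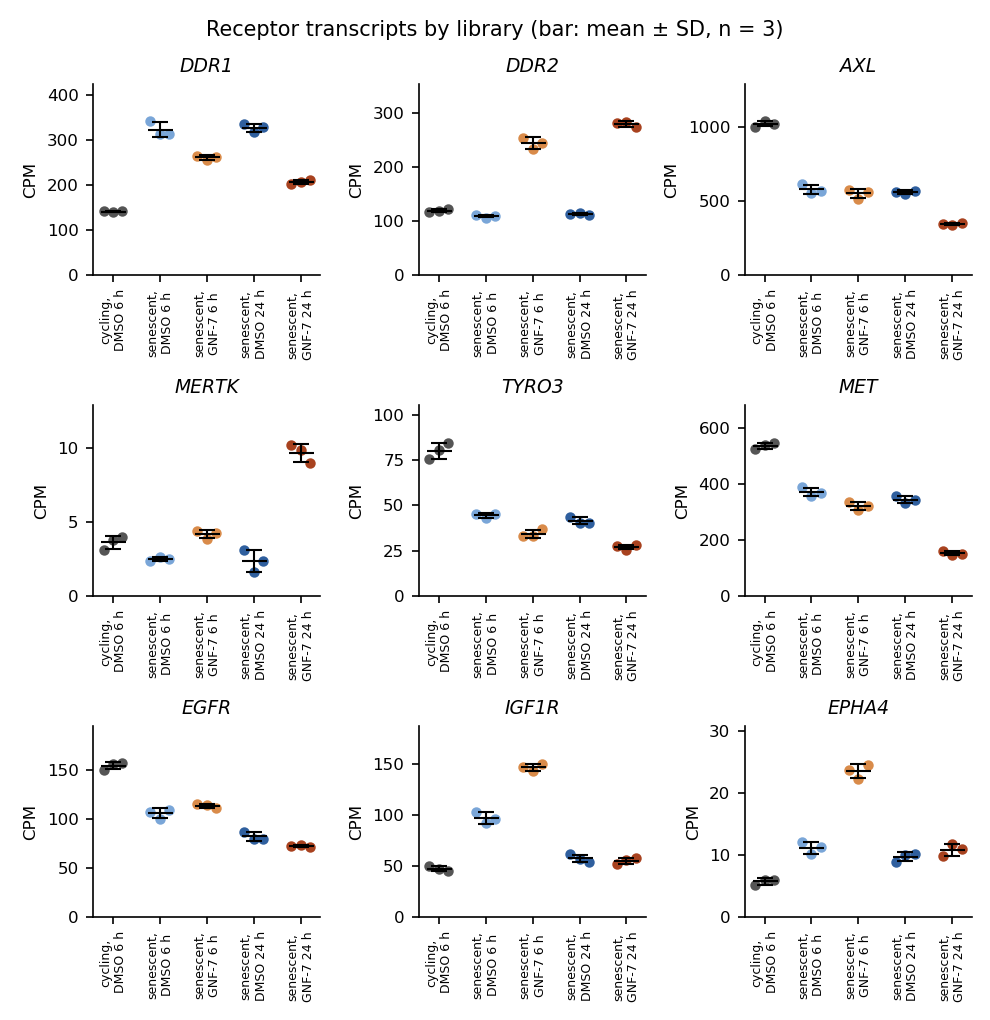
CPM of 9 receptor genes in every library of the 5 groups, with the mean ± SD of 3 libraries as bars and an axis that starts at 0 in each panel. DDR2 and MERTK are highest in the GNF-7 groups, EPHA4 and IGF1R peak in GNF-7 6 h libraries, and MET and AXL are lowest after GNF-7 for 24 h.

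Both members of the MET family fell in senescence and again with GNF-7 at 24 h. MET (chr7:116672390-116798386) was at 525, 538 and 546 CPM in cycling, 388, 358 and 366 in senescent DMSO 6 h and 335, 307 and 321 in GNF-7 6 h libraries. MET at 24 h was at 357, 330.3 and 342 CPM in DMSO and 159, 147 and 150.5 in GNF-7. The GNF-7 24 h libraries were below all other libraries by a wide margin. MET was 1.45-fold lower in senescence (log2 fold change -0.53, SE 0.037, adjusted p = 6.39e-20), and with GNF-7 it was 1.15-fold lower at 6 h (log2 fold change -0.21, SE 0.038, adjusted p = 6.51e-06) and 2.25-fold lower at 24 h (log2 fold change -1.17, SE 0.039, adjusted p = 1.82e-35). MST1R, the receptor of macrophage stimulating protein, was scarcer, at 3.62, 3.20 and 3.85 CPM in cycling, 2.38, 1.93 and 2.01 in senescent DMSO 6 h and 1.36, 2.64 and 2.61 in GNF-7 6 h libraries. MST1R at 24 h was at 2.01, 1.83 and 2.13 CPM in DMSO and 1.00, 0.942 and 0.830 in GNF-7. It fell in senescence (log2 fold change -0.76, SE 0.21, adjusted p = 0.00148) and at 24 h (log2 fold change -1.10, SE 0.25, adjusted p = 0.000156), and at 6 h the GNF-7 and DMSO libraries overlapped (log2 fold change 0.06, adjusted p = 0.857).

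Among the receptors of the EGF family, EGFR fell and ERBB2, which has no ligand of its own and pairs with the others, rose in senescence. EGFR (chr7:55019021-55211628) was at 150.3, 156 and 157 CPM in cycling, 107, 99.8 and 109.6 in senescent DMSO 6 h and 116, 114 and 111 in GNF-7 6 h libraries. EGFR at 24 h was at 87.0, 79.9 and 79.4 CPM in DMSO and 72.5, 73.5 and 71.4 in GNF-7. It was lower in every senescent library than in any cycling one (log2 fold change -0.55, SE 0.042, adjusted p = 3.72e-18), and lower again with GNF-7 at 24 h (log2 fold change -0.18, SE 0.044, adjusted p = 0.000337), a call that ended when only genes above a mean of 5 CPM were kept (-0.08). The small difference at 6 h (log2 fold change 0.11, SE 0.043, adjusted p = 0.039) was lost (0.06 to 0.12) when any of 7 libraries was dropped, namely cycling replicates 2 and 3, senescent DMSO 6 h replicates 1 and 2, GNF-7 6 h replicates 1 and 3 and DMSO 24 h replicate 3.

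ERBB2 was at 70.9 ± 1.69 CPM (SD, n = 3) in cycling and 103 ± 2.05 in senescent DMSO 6 h cells, and GNF-7 brought it to 71.8 ± 1.96 at 6 h and from 106 ± 5.46 to 59.6 ± 1.35 at 24 h. It rose in senescence (log2 fold change 0.54, SE 0.045, adjusted p = 7.93e-17) and fell with GNF-7 at 6 h (log2 fold change -0.52, adjusted p = 1.85e-15) and 24 h (log2 fold change -0.83, adjusted p = 1.12e-24). ERBB3, a partner with a weak kinase, was near 1 CPM and its call at 24 h (log2 fold change 0.72, SE 0.32, adjusted p = 0.0462) was lost without DMSO 24 h replicate 2 (0.50), GNF-7 24 h replicate 1 (0.60) or replicate 3 (0.67).

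IGF1R, the receptor of the insulin-like growth factors, rose in senescence and again with GNF-7 at 6 h, and its vehicle level had dropped by 24 h. It (chr15:98648539-98964530) was at 49.95, 46.3 and 45.1 CPM in cycling, 103, 91.6 and 95.7 in senescent DMSO 6 h and 146, 142 and 149.8 in GNF-7 6 h libraries. IGF1R at 24 h was at 61.1, 56.6 and 53.9 CPM in DMSO and 51.5, 55.4 and 57.6 in GNF-7. The 6 h groups did not overlap, and the 24 h groups did. IGF1R was 2.05-fold higher in senescence (log2 fold change 1.04, SE 0.051, adjusted p = 7.7e-27) and 1.51-fold higher with GNF-7 at 6 h (log2 fold change 0.60, SE 0.047, adjusted p = 1.38e-16). At 24 h it was not called (log2 fold change -0.06, adjusted p = 0.307), and in vehicle it fell between 6 h and 24 h (log2 fold change -0.75, SE 0.050, adjusted p = 1.32e-18). INSR, the insulin receptor, chosen here after its values were seen, had 0, 0 and 0 counts in cycling libraries, 6, 9 and 0 in senescent DMSO 6 h, 6, 0 and 9 in GNF-7 6 h, 0, 0 and 4 in DMSO 24 h and 15, 22 and 20 in GNF-7 24 h libraries. It reached 10 counts only in GNF-7 24 h libraries, through which it passed the filter, and its call there (adjusted p = 0.000512) was lost with DESeq2 (adjusted p = 0.0763). The call in senescence (adjusted p = 0.00583) rests on 15 counts against 0, with 1 senescent library also at 0.

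The class III receptors, classical targets of type II inhibitors, were scarce. PDGFRB, the PDGF receptor with the more reads, was at 13.7, 13.2 and 14.8 CPM in cycling, 10.1, 11.9 and 10.5 in senescent DMSO 6 h and 12.3, 12.6 and 10.5 in GNF-7 6 h libraries. PDGFRB at 24 h was at 9.79, 10.6 and 11.3 CPM in DMSO and 7.55, 7.73 and 8.20 in GNF-7. It fell in senescence (log2 fold change -0.36, SE 0.10, adjusted p = 0.00155) and with GNF-7 at 24 h (log2 fold change -0.43, SE 0.11, adjusted p = 0.000478) without overlap, and at 6 h GNF-7 and DMSO libraries overlapped (log2 fold change 0.12, adjusted p = 0.375). The senescence call ended with the filter at 5 CPM (-0.20). PDGFRA had 5, 2 and 1 counts in cycling libraries, 11, 10 and 12 in senescent DMSO 6 h, 11, 8 and 13 in GNF-7 6 h, 23, 4 and 8 in DMSO 24 h and 5, 6 and 15 in GNF-7 24 h libraries. It reached 10 counts only in senescent libraries, through which it passed the filter. Its call in senescence (log2 fold change 1.88, SE 0.73, adjusted p = 0.019) was lost without cycling replicate 2 (1.68) or replicate 3 (1.44), and 1533 bases of its exons are shared with AC058822.1 on the same strand. CSF1R, the receptor of CSF1, averaged 2.53 to 3.32 CPM and was called in none of the 5 comparisons, with adjusted p from 0.0709 in senescence to 0.87 for the difference of the GNF-7 effects.

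Of the FGF receptors, FGFR1 was the most abundant, at 142 ± 2.62 CPM in cycling and 159 ± 7.48 in senescent DMSO 6 h cells. It rose slightly in senescence (log2 fold change 0.16, SE 0.040, adjusted p = 0.000348) and fell with GNF-7 at 24 h, from 155 ± 4.50 to 113 ± 1.20 CPM (log2 fold change -0.46, SE 0.041, adjusted p = 2.71e-15). FGFR2 was near its detection limit in vehicle, at 0.402, 0.310 and 0.0326 CPM in cycling, 0.364, 0.347 and 0.312 in senescent DMSO 6 h and 0.940, 0.754 and 0.827 in GNF-7 6 h libraries. FGFR2 at 24 h was at 0.191, 0.600 and 0.348 CPM in DMSO and 1.10, 1.17 and 1.06 in GNF-7. The GNF-7 libraries lay above all DMSO libraries, and FGFR2 rose at 24 h (log2 fold change 1.55, SE 0.45, adjusted p = 0.00254) and at 6 h (log2 fold change 1.29, SE 0.46, adjusted p = 0.0217). The 6 h call was lost without senescent DMSO 6 h replicate 2 (1.30) or replicate 3 (1.23) or GNF-7 6 h replicate 1 (1.20).

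FGFR3 was at 4.79, 5.03 and 5.58 CPM in cycling, 3.05, 3.88 and 2.71 in senescent DMSO 6 h and 2.69, 1.71 and 1.62 in GNF-7 6 h libraries. FGFR3 at 24 h was at 2.23, 1.94 and 3.02 CPM in DMSO and 2.81, 2.47 and 2.29 in GNF-7. The cycling libraries were the highest, and at 24 h the groups overlapped. It fell in senescence (log2 fold change -0.67, SE 0.18, adjusted p = 0.00104) and with GNF-7 at 6 h (log2 fold change -0.68, SE 0.20, adjusted p = 0.00524), the latter lost without senescent DMSO 6 h replicate 2 (-0.52) or GNF-7 6 h replicate 3 (-0.54). FGFR4 was called higher at 24 h (log2 fold change 0.81, SE 0.26, adjusted p = 0.00566), although the libraries overlapped and the call was lost without DMSO 24 h replicate 1 (0.51) or GNF-7 24 h replicate 3 (0.64).

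EPH receptors bind ephrins on neighbouring cells, and 7 of the 10 listed were tested. EPHA2 fell in all 3 comparisons, from 538 ± 8.21 CPM in cycling to 329.7 ± 6.40 in senescent DMSO 6 h cells, to 260.2 ± 3.42 with GNF-7 at 6 h, and from 297 ± 6.79 to 187 ± 4.62 at 24 h, without overlap of libraries. Its log2 fold changes were -0.71, -0.34 and -0.67, the last with adjusted p = 1.96e-25. EPHB2 did the same, from 157 ± 2.59 to 103 ± 4.38 CPM in senescence and from 90.2 ± 1.64 to 49.97 ± 1.83 with GNF-7 at 24 h (log2 fold change -0.85, SE 0.045, adjusted p = 3.77e-25). EPHA4 was the counterpart, at 5.11, 5.99 and 6.01 CPM in cycling, 12.1, 10.1 and 11.3 in senescent DMSO 6 h and 23.7, 22.3 and 24.6 in GNF-7 6 h libraries. EPHA4 at 24 h was at 8.90, 10.1 and 10.2 CPM in DMSO and 9.85, 11.8 and 11.0 in GNF-7. The GNF-7 6 h libraries stood alone at the top, and by 24 h GNF-7 and DMSO libraries overlapped. EPHA4 was 1.95-fold higher in senescence (log2 fold change 0.96, SE 0.11, adjusted p = 7.15e-12) and 2.11-fold higher with GNF-7 at 6 h (log2 fold change 1.08, SE 0.094, adjusted p = 4.33e-15), and was not called at 24 h (log2 fold change 0.16, adjusted p = 0.168) except with the filter at 5 CPM (0.26).

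The remaining EPHB receptors differed in direction. EPHB1 rose with GNF-7 at 24 h, from 11.5 ± 0.903 to 18.4 ± 0.598 CPM (log2 fold change 0.67, SE 0.091, adjusted p = 3.39e-09), after a lower value at 6 h (log2 fold change -0.28, SE 0.093, adjusted p = 0.0128) that was lost without senescent DMSO 6 h replicate 3 (-0.22) or GNF-7 6 h replicate 2 (-0.21). Its rise in senescence (log2 fold change 0.28, adjusted p = 0.00633) was likewise lost without senescent DMSO 6 h replicate 3 (0.21). EPHB4 fell with GNF-7 at 6 h (log2 fold change -0.43, adjusted p = 6.64e-12) and at 24 h (log2 fold change -0.26, adjusted p = 9.13e-07) and was not called in senescence. EPHB3 rose in senescence (log2 fold change 0.51, adjusted p = 0.000812). EPHB6, whose kinase domain is inactive, rose with GNF-7 at 24 h (log2 fold change 0.45, adjusted p = 2e-05).

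ROR1, ROR2, RYK and PTK7, which take part in Wnt signalling, all fell in senescence. ROR2 was at 3.78, 3.31 and 3.40 CPM in cycling, 1.59, 2.05 and 1.63 in senescent DMSO 6 h and 1.88, 2.33 and 2.39 in GNF-7 6 h libraries. ROR2 at 24 h was at 2.04, 1.27 and 1.08 CPM in DMSO and 2.07, 1.88 and 2.86 in GNF-7. The cycling libraries were above all senescent vehicle libraries, 1.98-fold on average (log2 fold change -0.98, SE 0.22, adjusted p = 6.85e-05). Its call with GNF-7 at 24 h (log2 fold change 0.61, SE 0.23, adjusted p = 0.0207), where libraries overlapped, was lost without DMSO 24 h replicate 2 (0.51) or replicate 3 (0.44) or GNF-7 24 h replicate 3 (0.41). ROR1 fell from 15.1 ± 0.170 to 8.39 ± 0.925 CPM with GNF-7 at 24 h (log2 fold change -0.84, SE 0.091, adjusted p = 2.64e-12) and RYK from 121 ± 4.52 to 87.8 ± 4.25 (log2 fold change -0.46, SE 0.043, adjusted p = 1.64e-14). PTK7, a receptor without kinase activity, was called lower at 6 h (log2 fold change -0.28, adjusted p = 0.00364) and barely at 24 h (log2 fold change -0.19, adjusted p = 0.032). The 6 h call was lost without GNF-7 6 h replicate 2 (-0.19), and the 24 h call without DMSO 24 h replicate 1 or 3 or GNF-7 24 h replicate 2 or 3 (-0.19 to -0.16).

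Of the vascular receptors TIE1, named after its values were seen, was at 291, 300.2 and 287 CPM in cycling, 232, 211 and 221 in senescent DMSO 6 h and 189, 184 and 199.6 in GNF-7 6 h libraries. TIE1 at 24 h was at 218, 213 and 233 CPM in DMSO and 189, 194 and 204 in GNF-7. At each time the GNF-7 libraries were below the DMSO ones. TIE1 fell in senescence (log2 fold change -0.40, SE 0.040, adjusted p = 6.27e-14), and with GNF-7 by similar amounts at 6 h (log2 fold change -0.21, adjusted p = 1.18e-05) and 24 h (log2 fold change -0.18, adjusted p = 0.000111), the last lost with the filter at 5 CPM (-0.08). FLT1, a VEGF receptor also named after its values were seen, had 4, 3 and 2 counts in DMSO 24 h and 23, 15 and 10 in GNF-7 24 h libraries (log2 fold change 2.29, SE 0.72, adjusted p = 0.00501). It reached 10 counts only there and in cycling replicate 2 (18 counts), so that it passed the filter largely through the group where it is high. TEK and the neurotrophin receptor NTRK3 were called in none of the 5 comparisons, TEK at 0.498 to 0.747 CPM and NTRK3 at 14, 10 and 17 counts in DMSO 24 h and 20, 35 and 24 in GNF-7 24 h libraries (log2 fold change 0.84, SE 0.48, adjusted p = 0.127).

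The ABL kinases, for which GNF-7 was made, were not called in senescence and parted with the compound. ABL1 (chr9:130713946-130887675) was at 173, 171 and 170.4 CPM in cycling, 170.1, 174 and 161 in senescent DMSO 6 h and 214, 228 and 212 in GNF-7 6 h libraries. ABL1 at 24 h was at 140.1, 145 and 139 CPM in DMSO and 125, 136 and 129 in GNF-7. The GNF-7 6 h libraries were the highest of all. ABL1 was 1.29-fold higher with GNF-7 at 6 h (log2 fold change 0.37, SE 0.039, adjusted p = 3.93e-12) and slightly lower at 24 h (log2 fold change -0.12, SE 0.040, adjusted p = 0.00736), the latter lost without GNF-7 24 h replicate 1 (-0.10) and with the filter at 5 CPM (-0.02). ABL2 (chr1:179099327-179229684) was at 110.0, 121 and 117 CPM in cycling, 110.2, 115 and 115 in senescent DMSO 6 h and 86.9, 80.1 and 81.0 in GNF-7 6 h libraries. ABL2 at 24 h was at 102, 108 and 105 CPM in DMSO and 64.8, 62.5 and 65.2 in GNF-7. Its GNF-7 libraries were below all DMSO libraries, with a 1.37-fold fall at 6 h (log2 fold change -0.45, SE 0.044, adjusted p = 1.71e-13) and 1.64-fold at 24 h (log2 fold change -0.71, SE 0.045, adjusted p = 8.86e-22). In senescence ABL1 (log2 fold change -0.03, adjusted p = 0.566) and ABL2 (log2 fold change -0.03, adjusted p = 0.494) took the other sign and passed the threshold when libraries were scaled by total counts (0.11 and 0.10), and over all genes that scaling gave a median of 0.19 in place of 0.06.

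**Figure D4:**
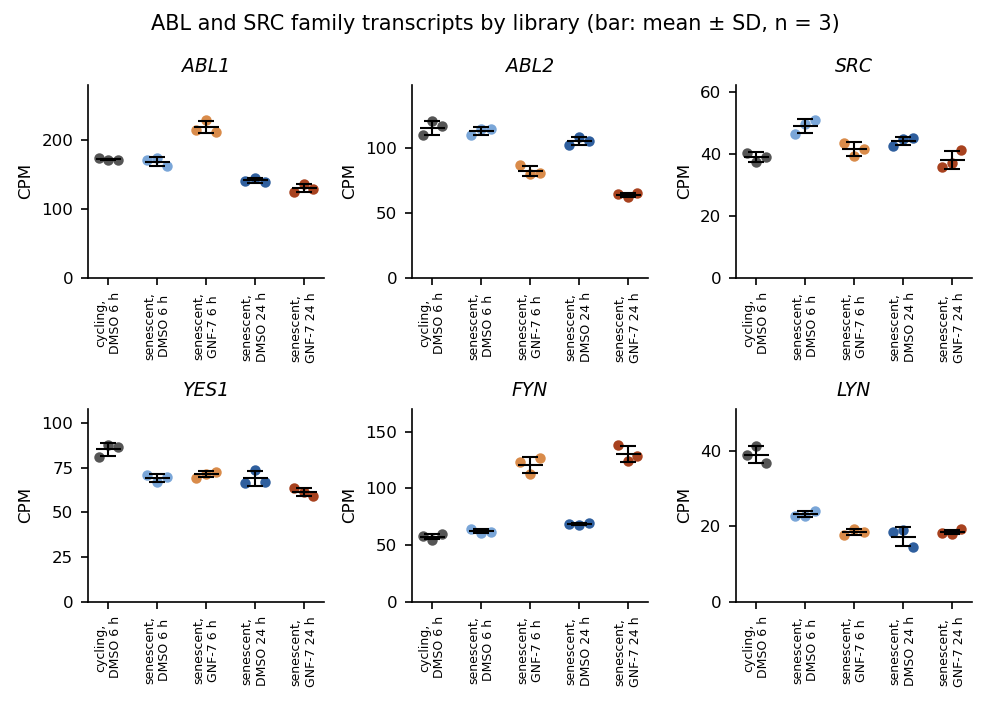
CPM of ABL1, ABL2, SRC, YES1, FYN and LYN in every library of the 5 groups, with the mean ± SD of 3 libraries as bars and axes that start at 0. FYN is high in both GNF-7 groups, ABL1 in GNF-7 6 h libraries alone among the groups, ABL2 is low in both, and LYN is highest in cycling cells.

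The SRC family also divided. FYN (chr6:111660332-111873452), which acts beside integrins, was at 58.3, 54.7 and 59.4 CPM in cycling, 64.6, 61.0 and 61.6 in senescent DMSO 6 h and 123, 112 and 126 in GNF-7 6 h libraries. FYN at 24 h was at 68.1, 67.4 and 69.1 CPM in DMSO and 138, 124 and 128 in GNF-7. Both GNF-7 groups stood clear above every DMSO library. FYN was 1.93-fold higher at 6 h (log2 fold change 0.95, SE 0.047, adjusted p = 4.19e-26) and 1.91-fold higher at 24 h (log2 fold change 0.93, SE 0.047, adjusted p = 1.97e-26), and a difference between these effects was not called (log2 fold change -0.02, SE 0.066, adjusted p = 0.873). Its small rise in senescence (log2 fold change 0.12, SE 0.049, adjusted p = 0.0289) was lost without cycling replicate 2 (0.08) or senescent DMSO 6 h replicate 1 (0.09). Per kilobase FYN stood at 9.20 and YES1 at 13.5 RPKM in senescent DMSO 24 h cells, and FYN at 17.6 and YES1 at 12.01 after GNF-7.

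SRC was at 40.4, 37.2 and 39.0 CPM in cycling, 46.5, 49.5 and 50.8 in senescent DMSO 6 h and 43.6, 39.3 and 41.6 in GNF-7 6 h libraries. SRC at 24 h was at 42.6, 44.8 and 45.2 CPM in DMSO and 35.6, 37.1 and 41.3 in GNF-7. GNF-7 libraries were below DMSO libraries at each time. SRC rose in senescence (log2 fold change 0.33, SE 0.058, adjusted p = 9.48e-07) and fell with GNF-7 at 6 h (log2 fold change -0.24, adjusted p = 0.000594) and 24 h (log2 fold change -0.22, adjusted p = 0.00122), and the 24 h call was lost with the filter at 5 CPM (-0.11). YES1, a ubiquitous member, was at 81.2, 87.5 and 86.7 CPM in cycling, 70.8, 66.7 and 69.8 in senescent DMSO 6 h and 69.5, 71.4 and 72.8 in GNF-7 6 h libraries. YES1 at 24 h was at 66.3, 73.7 and 67.0 CPM in DMSO and 63.6, 61.2 and 59.0 in GNF-7. Its cycling libraries were the highest and its GNF-7 24 h libraries the lowest. YES1 fell in senescence (log2 fold change -0.30, SE 0.048, adjusted p = 8.54e-08) and slightly at 24 h (log2 fold change -0.17, adjusted p = 0.00187), the latter lost with the same filter (-0.07). LYN, known best from blood cells, was at 38.9, 41.3 and 36.7 CPM in cycling, 22.6, 22.7 and 24.0 in senescent DMSO 6 h and 17.5, 19.3 and 18.5 in GNF-7 6 h libraries. LYN at 24 h was at 18.5, 18.9 and 14.4 CPM in DMSO and 18.2, 18.1 and 19.1 in GNF-7. Again the cycling libraries stood above all others. LYN fell in senescence (log2 fold change -0.75, SE 0.074, adjusted p = 4.77e-14) and with GNF-7 at 6 h (log2 fold change -0.33, SE 0.078, adjusted p = 0.00045), and at 24 h, where its vehicle level had fallen too, it was not called (log2 fold change 0.09, adjusted p = 0.329). Of 3 leukocyte markers PTPRC and CD3E were at or near 0 in all groups and CD68 averaged 2.24 to 4.35 CPM.

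The GNF-7 comparisons at 6 h and 24 h share no library. FGFR2, MERTK, DDR2 and FYN were called higher at both times, 4 of the 40 tested, where 13.0% of all genes were. ERBB2, MET, TYRO3, RYK, PTK7, DDR1, EPHA2, EPHB2, EPHB4, TIE1, ABL2 and SRC were called lower at both, 12 of 40 against 17.3% of all genes. Leaving out a library could end the 6 h call of FGFR2 and either call of PTK7. The filter at 5 CPM ended the 24 h calls of TIE1 and SRC. EGFR, EPHB1 and ABL1 were called in opposite directions, 3 of 40 against 1.72%, and each of these rests on 1 call that leaving out a library can end. The test of the difference between the 2 effects, 24 h minus 6 h, called 26 members, 8 higher and 18 lower (65%). Over all genes it called 30.8%, with 12.8% higher and 18.0% lower, and with the filter at 5 CPM 5118 of 11226 genes. With DESeq2 4 rather than 8 members were higher.

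The MET effect went from -0.21 to -1.17 (difference -0.96, adjusted p = 4.86e-23). EPHA4 and IGF1R, raised at 6 h, lost that rise (-0.91, adjusted p = 2.07e-07, and -0.66, adjusted p = 1.08e-11). The AXL effect became more negative by 0.63 (adjusted p = 1.91e-15) and that of ABL1 by 0.50 (adjusted p = 7.42e-11). In the other direction the MERTK effect grew by 1.27 (adjusted p = 2.06e-05) and that of EPHB1 by 0.95 (adjusted p = 1.78e-08). The vehicle of the later time differed from that of the earlier one in 18.5% of all genes (9.26% higher and 9.29% lower at 24 h). Of the 40 members 8 differed (20%), all of them lower at 24 h. These were EGFR (-0.36), MET (-0.11), IGF1R (-0.75), EPHA2 (-0.15), EPHB1 (-0.26), EPHB2 (-0.19), ABL1 (-0.25) and LYN (-0.42). Of these, MET (-0.12 to -0.07) and EPHB1 (-0.28 to -0.20) were lost without senescent DMSO 6 h replicate 1 or 3 or DMSO 24 h replicate 2 or 3.

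**Figure D5:**
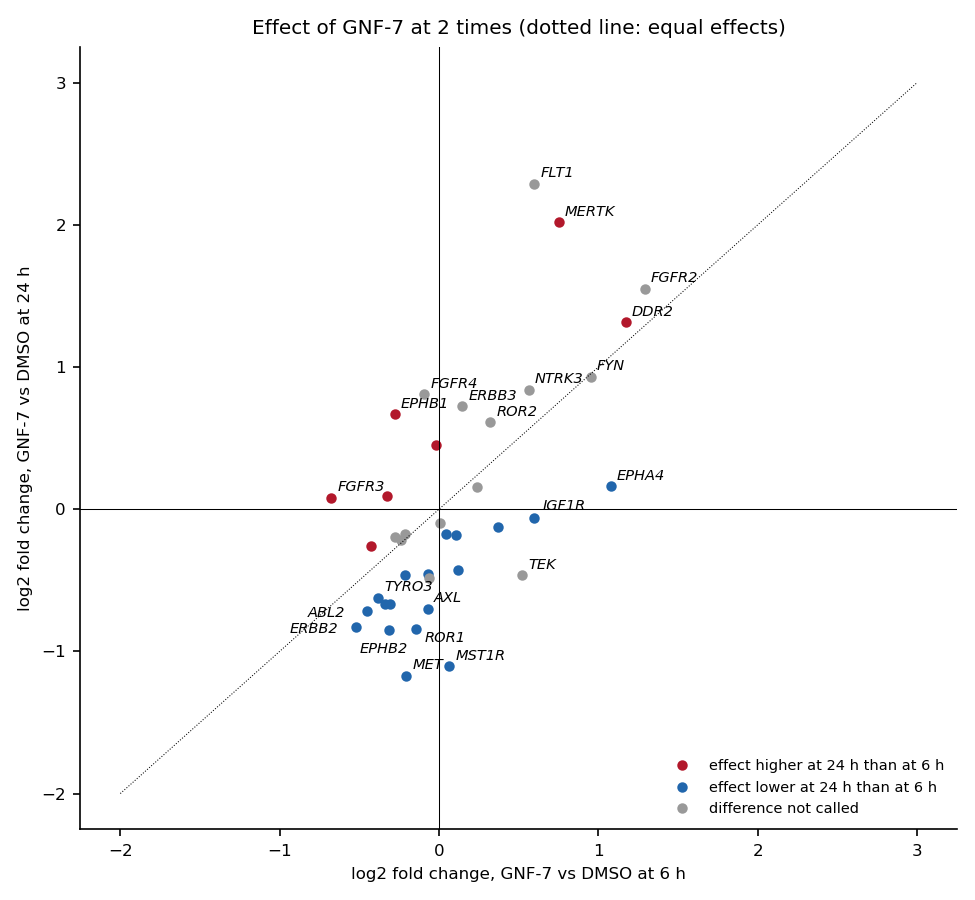
Log2 fold change of GNF-7 against DMSO at 6 h (horizontal) and at 24 h (vertical) for 39 tested members without INSR, coloured by the test of the difference between the 2 effects, with the dotted line marking equal effects. FYN and DDR2 lie near the line, MERTK above it, and MET, MST1R, EPHA4 and IGF1R below it.

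The senescence comparison and the GNF-7 comparison at 24 h also share no library. Members that fell in senescence and fell again with GNF-7 numbered 13 of 40, against 17.8% of all genes: EGFR, PDGFRB, MET, MST1R, AXL, TYRO3, ROR1, RYK, PTK7, EPHA2, EPHB2, TIE1 and YES1. ERBB2, FGFR1, DDR1 and SRC rose in senescence and fell with GNF-7 (4 of 40, against 7.11%). MERTK, ROR2 and DDR2 fell in senescence and rose with GNF-7 (3 of 40, against 6.35%), and INSR, EPHB1 and FYN were called higher in both (3 of 40, against 15.7%). INSR passed the filter through the GNF-7 24 h libraries, and without single libraries the senescence calls of EPHB1 and FYN and the 24 h calls of PTK7 and ROR2 were lost. With the filter at 5 CPM the senescence calls of PDGFRB and DDR2 and the 24 h calls of EGFR, TIE1, YES1 and SRC were lost. The senescence call of DDR2 was also lost with total counts.

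Genes around these kinases were taken from 5 lists. CSK is in both the brakes and the other non-receptor kinases, and PTK2 in both the adaptors and the other non-receptor kinases. Each is counted in both of its lists. The shares over all genes given beside the lists depend on how many low genes are tested. Of 11226 genes at a mean of 5 CPM or more, 9188 were called in senescence, 6034 with GNF-7 at 6 h and 8136 at 24 h. Of 57 receptor ligands 37 were tested, and 20 rose and 12 fell in senescence, 86.5% in all against 70.0% of all genes, with a median of 0.34 against 0.06. CSF1, the ligand of CSF1R, rose from 78.7 ± 3.37 to 289 ± 16.4 CPM (log2 fold change 1.88, SE 0.042, adjusted p = 9.12e-45), VEGFA, the ligand of FLT1 and KDR, from 221 ± 1.91 to 592 ± 10.2 (log2 fold change 1.42, SE 0.036, adjusted p = 5.03e-42), and PROS1, the TAM ligand protein S, from 4.93 ± 0.718 to 21.1 ± 1.57 (log2 fold change 2.09, SE 0.097, adjusted p = 2.51e-28). KITLG, the ligand of KIT, rose as well (log2 fold change 1.33, SE 0.082, adjusted p = 1.99e-22). With GNF-7 5 ligands rose and 15 fell at 6 h, and 11 rose and 20 fell at 24 h (medians -0.16 and -0.28). These are 54.1% and 83.8% of the ligands tested, where 39.3% and 58.9% of all genes were called. At 24 h GAS6, the ligand of AXL, fell from 530.5 ± 25.0 to 214 ± 10.1 CPM (log2 fold change -1.31, SE 0.041, adjusted p = 7.95e-34) and less at 6 h (log2 fold change -0.40, SE 0.040, adjusted p = 2.68e-12). HBEGF, a ligand of EGFR, fell at 6 h (log2 fold change -1.01, SE 0.040, adjusted p = 9.51e-31) and at 24 h (log2 fold change -1.18, SE 0.043, adjusted p = 1.25e-33). PDGFA fell at 6 h (log2 fold change -0.84, SE 0.094, adjusted p = 2.24e-11) and VEGFC at 24 h (log2 fold change -1.39, SE 0.054, adjusted p = 2.18e-31). VEGFA rose at both times, to 1191 CPM at 24 h (log2 fold change 0.91, SE 0.035, adjusted p = 2.77e-32). When GNF-7 6 h replicate 2 was left out, 3 rather than 5 ligands were called higher at 6 h.

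All 36 adaptors and relay proteins were tested, with 12 higher and 19 lower in senescence, 6 and 19 with GNF-7 at 6 h, and 7 and 23 at 24 h. The shares called were 86.1%, 69.4% and 83.3%, against 70.0%, 39.3% and 58.9% of all genes, and the medians -0.16, -0.15 and -0.16 against 0.06, 0.01 and 0.04. Of the genes at a mean of 5 CPM or more, 9188, 6034 and 8136 of 11226 were called. The insulin receptor substrates moved apart: IRS1 rose in senescence (log2 fold change 0.98, SE 0.047, adjusted p = 1.35e-27) and fell with GNF-7 at 6 h (log2 fold change -0.52, SE 0.046, adjusted p = 6.63e-15) and 24 h (log2 fold change -0.68, SE 0.047, adjusted p = 6.25e-20), while IRS2 rose at 6 h (log2 fold change 0.73, SE 0.070, adjusted p = 1.58e-13) and at 24 h went from 16.8 ± 1.505 to 43.8 ± 2.76 CPM (log2 fold change 1.38, SE 0.072, adjusted p = 1.76e-25). SHC1 rose in senescence (log2 fold change 0.59, SE 0.035, adjusted p = 1.76e-23) and fell at 24 h (log2 fold change -0.66, SE 0.035, adjusted p = 2.41e-25). PTPN11 (-0.73, adjusted p = 2.08e-26) and AKT1 (-0.64, adjusted p = 5.85e-24) fell in senescence. SOS2 (0.55, adjusted p = 7.21e-10) rose and BCAR1 (-0.39, adjusted p = 5.21e-13) fell with GNF-7 at 6 h, and NCK2 (0.90, adjusted p = 5.72e-23) rose at 24 h.

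Of 33 brakes on receptor signalling 32 were tested, with 7 higher and 20 lower in senescence, 7 and 17 with GNF-7 at 6 h and 6 and 19 at 24 h. That is 84.4%, 75% and 78.1% of them, beside the 70.0%, 39.3% and 58.9% of all genes, with medians of -0.27, -0.15 and -0.21. Among genes at a mean of 5 CPM or more, 9188, 6034 and 8136 of 11226 were called. INPP5D, a phosphatase that removes the PI3K product, rose from 13.3 ± 1.08 to 88.4 ± 6.15 CPM in senescence (log2 fold change 2.72, SE 0.058, adjusted p = 5.52e-46), and ERRFI1, which blocks EGFR, fell from 524 ± 10.1 to 206 ± 2.48 (log2 fold change -1.35, SE 0.036, adjusted p = 9.52e-41) and again with GNF-7 at 6 h (log2 fold change -0.42, SE 0.037, adjusted p = 5.27e-15). UBASH3B (-1.59, adjusted p = 3.55e-38) and RASA1 (-0.85, adjusted p = 1.7e-25) also fell in senescence. GRB10, which binds and restrains the insulin and IGF1 receptors, rose with GNF-7 at 6 h, 26.1 ± 1.04 to 75.8 ± 1.04 CPM (log2 fold change 1.54, SE 0.055, adjusted p = 1.98e-33) and at 24 h, 24.0 ± 0.388 to 77.5 ± 2.31 CPM (log2 fold change 1.69, SE 0.056, adjusted p = 1.1e-35). SH2B3 (0.46, adjusted p = 1.34e-15) rose and SPRED3 (-0.73, adjusted p = 8.56e-14) fell at 6 h. PTPRK (-1.10, adjusted p = 1.84e-25), PTPRG (-0.79, adjusted p = 1.08e-23) and DOK1 (-0.93, adjusted p = 2.99e-23) fell at 24 h.

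Of 26 other non-receptor tyrosine kinases 18 were tested, with 7 higher and 4 lower in senescence, 3 and 3 with GNF-7 at 6 h and 5 and 3 at 24 h. The shares called, 61.1%, 33.3% and 44.4%, were below the 70.0%, 39.3% and 58.9% of all genes. Without senescent DMSO 6 h replicate 2, 1 rather than 3 was lower at 6 h, and TYK2, called there (log2 fold change -0.16, SE 0.046, adjusted p = 0.00358), was at -0.10. PTK2B, a relative of focal adhesion kinase, rose in senescence from 1.36 ± 0.347 to 6.98 ± 0.857 CPM (log2 fold change 2.34, SE 0.16, adjusted p = 1.24e-19) and with GNF-7 to 14.4 ± 1.42 at 6 h (log2 fold change 1.04, SE 0.12, adjusted p = 4.96e-11) and 16.6 ± 2.18 at 24 h (log2 fold change 1.08, SE 0.12, adjusted p = 3.39e-12). PTK2, focal adhesion kinase itself, fell in all 3 comparisons (-0.53, -0.19 and -0.29). CSK, which holds SRC kinases inactive, fell in senescence (log2 fold change -0.65, SE 0.043, adjusted p = 3.85e-21), where TNK2 rose (0.53, adjusted p = 8.5e-09). JAK2 rose with GNF-7 at 6 h (0.40, adjusted p = 4.38e-05) and 24 h (0.50, adjusted p = 2.51e-07), and MATK at 24 h (log2 fold change 1.72, SE 0.35, adjusted p = 2.05e-05).

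Of 16 receptor tyrosine kinases outside the 48 genes, 9 were tested, with 2 higher in senescence, 2 higher and 1 lower with GNF-7 at 6 h and 3 higher and 1 lower at 24 h. They amount to 22.2%, 33.3% and 44.4%, where 70.0%, 39.3% and 58.9% of all genes were called. LTK rose in senescence from 0.127 ± 0.135 to 1.60 ± 0.477 CPM (log2 fold change 3.70, SE 0.42, adjusted p = 9.69e-12) and with GNF-7 at 24 h (log2 fold change 1.07, SE 0.28, adjusted p = 0.000671). It was near 0 in cycling libraries and passed the filter through senescent ones, the side where it is high. INSRR reached 10 counts only in GNF-7 libraries, the groups where it is high, and passed the filter through them. It is among the genes counted as higher in senescence, at 6 h and at 24 h. At 24 h it was called higher (log2 fold change 3.31, SE 0.68, adjusted p = 2.87e-05). Its calls in senescence (without cycling replicate 1 or 2 or senescent DMSO 6 h replicate 1, lowest value 2.62) and at 6 h (without senescent DMSO 6 h replicate 2 or 3 or GNF-7 6 h replicate 1, 1.44 to 1.70) were lost when a library was left out. LMTK2 fell at 6 h (log2 fold change -0.41, SE 0.060, adjusted p = 6.64e-08). STYK1 was called lower at 24 h (log2 fold change -0.80, SE 0.26, adjusted p = 0.00674), and not without DMSO 24 h replicate 2 (-0.46).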

How the data were processed

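RNA was extracted with a column kit and sequenced after a stranded mRNA preparation, per the labels' protocols. The authors deposited raw counts per Ensembl gene without normalization, made with STAR 2.7.9a and featureCounts 1.5.1 on GRCh38, per the submitters' processing notes. The annotation release and the strand setting of the counting are not given in the sources used here, so the 11 members with an exon overlap on the other strand and the 3 with one on the same strand are less certain: EGFR, ERBB2, FGFR1, MST1R, AXL, EPHA4, EPHA5, EPHB1, EPHB2, EPHB4 and YES1, and ERBB3, PDGFRA and DDR1.

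Of 60673 rows, 3 that hold 1 broken entry were left out. Library names in the labels gave each column its group. Genes kept by filterByExpr (18563) were fitted with edgeR 4.0.16 in R 4.3.3 (quasi-likelihood, robust, TMM scaling, 1 term per group over 15 libraries, no replicate block), and p-values were adjusted by Benjamini and Hochberg over all of them. A gene is called at adjusted p under 0.05. The biological coefficient of variation was 4.64%. CPM use the TMM-scaled totals, and RPKM divide them by the exon length in GENCODE 29. The script was tested on simulated data. In 15 pairs of libraries of a group the counts differed by more than sampling noise (chi-square per gene 2.94 to 11.6). Alternatives were RLE sizes, total counts, scaling without mitochondrial genes, limma 3.58.1 with voom, DESeq2 1.42.0, fits without the filter or with 1 that keeps means of 5 CPM or more, a replicate block, only the groups compared, and each library left out.

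Members and lists were chosen with earlier results of these data known. Values in every library are given for ABL1, ABL2, SRC, YES1, FYN, LYN, DDR1, DDR2, EGFR, PDGFRA, PDGFRB, KIT, MET and AXL. They are also given in each of the 3 main comparisons for called members with a change of at least 2-fold and 1 CPM in the higher group, or for the 6 largest where fewer pass. Of each related list up to 4 genes with the smallest p are named, and 1 of these genes is not reported here.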

Additional observations from a re-analysis of the deposited data

Results flagged for a closer look

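For 26 of the 40 members tested, the effect of GNF-7 on the log2 scale differed between 24 h and 6 h by a test of the difference itself (edgeR, adjusted p under 0.05), where 30.8% of all genes did. With the 5 CPM filter 5118 of 11226 genes did. The effect was more negative at 24 h for MST1R (-1.16), MET (-0.96), EPHA4 (-0.91), ROR1 (-0.70), IGF1R (-0.66), AXL (-0.63), PDGFRB (-0.55), EPHB2 (-0.54), ABL1 (-0.50), FGFR1 (-0.39), DDR1 (-0.36), EPHA2 (-0.33), ERBB2 (-0.31), EGFR (-0.29), ABL2 (-0.26), RYK (-0.25), TYRO3 (-0.24) and YES1 (-0.22). It was more positive at 24 h for INSR (3.62), MERTK (1.27), EPHB1 (0.95), FGFR3 (0.76), EPHB6 (0.47), LYN (0.42), EPHB4 (0.16) and DDR2 (0.14). Leaving out single libraries ended some of these calls. EPHB4 was lost in 13 of 15 such fits, all but those without replicate 3 of GNF-7 6 h or replicate 1 of GNF-7 24 h (0.13 to 0.17). DDR2 was lost without replicates 1 or 3 of senescent DMSO 6 h, 2 or 3 of GNF-7 6 h, 1 or 3 of DMSO 24 h, or 1 or 2 of GNF-7 24 h (0.10 to 0.15). FGFR3 was lost without senescent DMSO 6 h replicate 2, replicates 2 or 3 of GNF-7 6 h, or replicates 1 or 2 of either 24 h group (0.59 to 0.77). INSR was lost without senescent DMSO 6 h replicates 1 or 2, GNF-7 6 h replicate 2, DMSO 24 h replicates 1 or 2 or GNF-7 24 h replicate 2 (2.94 to 3.51), and rests on few counts. TYRO3 was lost without senescent DMSO 6 h replicate 2, GNF-7 6 h replicate 3, replicate 1 of DMSO 24 h or replicate 2 of GNF-7 24 h (-0.22 to -0.19), and YES1 without DMSO 24 h replicate 2 (-0.17). Groups of 3 libraries were not examined for outlying libraries.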

How the results depend on the processing

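Of 196 single-gene values, 147 kept their direction and side of the threshold in each of 24 alternatives that tested the gene. In the same sense 142 of 174 calls were kept. An alternative that did not test a gene was skipped for that gene. Calls that could not be made for this reason, as with the 5 CPM filter for low genes, are therefore not among those lost. With only the groups compared, 36 members were tested in senescence. Calls lost numbered 2 with RLE sizes, 2 with total counts, 2 with scaling without mitochondrial genes, 7 with no filter, 9 with the 5 CPM filter, 5 with DESeq2, 0 with voom, 0 with a replicate block, 4 with only the groups compared and 25 in at least 1 fit without a library. Unless shown otherwise, the cause was not tested. The 5 CPM filter left 27 members to test. It gave 6 members higher and 13 lower with GNF-7 at 24 h, 7 ligands and 2 non-receptor kinases lower and 4 non-receptor kinases higher in senescence, 6 ligands higher and 14 adaptors lower at 24 h, and of the other receptors 1 higher in senescence, 0 higher at 6 h and 1 higher and 0 lower at 24 h. Over all genes the same filter left 11226 to test, of which 9188 were called in senescence, 6034 at 6 h and 8136 at 24 h. Other receptors called higher were 1 in senescence with only the groups compared and 1 at 6 h with no filter.

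For the difference of the GNF-7 effects, 5 members were higher with no filter, 5 with the 5 CPM filter, 4 with DESeq2, 5 with only the groups compared and 4 to 7 without a library. In vehicle between 6 h and 24 h, 2 were higher with the 5 CPM filter, 1 with only the groups compared and 0 to 1 without a library, and 18 were lower with total counts, under which 627 of 5019 genes called were higher rather than 1719 of 3443 and the median of all genes moved from 0.01 to -0.10. Without a library the counts were 9 to 11 higher and 18 to 20 lower in senescence, 6 to 8 and 13 to 17 at 6 h, and 9 to 12 and 19 to 20 at 24 h. Ligands higher at 6 h were 3 to 5, non-receptor kinases lower at 6 h 1 to 3, and other receptors 1 to 3 higher in senescence, 1 to 2 higher at 6 h and 0 to 1 lower at 24 h.

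Signs changed in senescence for DDR2 (0.00378 with total counts, 0.0230 with the 5 CPM filter), ABL1 (0.11, 0.13, and 0.0330 with only the groups compared) and ABL2 (0.10, 0.12 and 0.0254), and with the 5 CPM filter for IGF1R at 24 h (0.0393) and the FYN difference of effects (0.0290). Of these only DDR2 was called by the test as reported. Without a library, uncalled values ran from -0.0554 to 0.996 (FGFR2) and -0.11 to 1.24 (ROS1) in senescence, -0.21 to 0.0910 (PDGFRA) and -0.0825 to 0.31 (MST1R) at 6 h, and -1.13 to 0.35 (PDGFRA), -0.0534 to 0.27 (FGFR3) and -0.0222 to 0.15 (LYN) at 24 h. The differences of effects ran from -1.07 to 0.42 (PDGFRA), -0.0788 to 0.76 (FGFR2), -0.0438 to 0.0639 (SRC) and -0.0737 to 0.0137 (FYN).

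With the replicate number as a block, 1 member was higher in vehicle at 24 h rather than 0, and no other count moved by over 1.5 times. The labels do not say whether the numbers pair libraries. Deviations of same-numbered libraries correlated at -0.03 to 0.06 in 12 pairs (mean 0.015) and those of other numbers at -0.07 to 0.04 in 24 (mean -0.008). These overlapping ranges cannot show whether libraries were paired. Members under about 1 CPM rest on few counts, which limits INSR, PDGFRA, FGFR2, FLT1, NTRK3 and TEK.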
